A study of Arabidopsis thaliana with 8 samples.

Results

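The genes described here are 100 nuclear loci of Arabidopsis thaliana that the annotation of the array probe sets lists only by their locus code. They stood higher in wild-type seedlings on solid medium than in every other group of the study. A locus was taken when its mean log2 expression in wild type on solid medium was at least 0.8 above the mean of each of the other 3 groups, and when the SMIFH2 and control groups in liquid medium differed by less than 0.5. On the linear scale these limits are 1.74-fold and 1.41-fold. Of 16554 genes tested, 14750 were such unnamed nuclear loci, and 100 of them met the thresholds. The measured values themselves chose these loci, so their height in wild type on solid medium is a description and not a finding.

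Whole seedlings aged 7 days were profiled on Affymetrix arrays, with 2 arrays in each of 4 groups and a separate pool of about 120 seedlings behind each array. All groups had the Columbia background. One group was fh1-1, a single mutant line of the formin gene FH1, kept on solid MS medium for 7 days. The wild type was a backcrossed sister of that line. It was kept in the same way on solid medium, or moved after 6 days on solid medium to shaken liquid MS medium for 1 day, either without SMIFH2 or with 20 uM SMIFH2. Solid cultures had 16 h of light and 8 h of dark, whereas the last day in liquid was in continuous light. Medium, shaking and light therefore changed together between solid and liquid groups and cannot be told apart. The pools are described as biological replicates.

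Formins are proteins that nucleate actin filaments and drive their elongation through the FH2 domain, and plant formins such as FH1 also link the cytoskeleton to membranes. SMIFH2 is a small molecule that inhibits the FH2 domain. Plant seedlings on vertical plates keep their shoots in air and their roots along the agar, while seedlings in shaken liquid are submerged and bathed on all sides. Roles of the members are not given here, because the annotation used holds a family name for only 1 of them, AT1G72120 (NPF5.14), which belongs to the NRT1/PTR family of membrane transporters for nitrate, peptides and other small molecules. All 100 are annotated as protein-coding genes.

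The arrays had median log2 values of 3.89 to 3.96 over all probe sets and a 25th percentile of 2.13 to 2.24. The 7 measured photosynthesis markers had their lowest summed linear level in wild type on solid medium (1800 to 1993, against 3802 to 4012 in the liquid control and 10404 to 10838 in fh1-1 and SMIFH2). Of 12 root markers 6 were measured, and these had their highest sum there (7527 to 8169, against 4948 to 6971 elsewhere). PYK10 was by far the brightest of them, with 12.41 and 12.49 in wild type on solid medium and 12.34 and 12.39 in fh1-1. By limma 3 of the 6 were lower in fh1-1 than in wild type on solid medium (background 11.7%), 5 in the liquid control (2.48%) and 4 with SMIFH2 (11.6%). In no group did any of these shoot or root markers lie under the 25th percentile. Of 32 seed and embryo markers 13 were measured, with a summed level of 132 to 172 in wild type on solid medium, 68.5 to 75.3 in fh1-1, 83.9 to 141 in the liquid control and 64.7 to 68.5 with SMIFH2. Of these 13, 3 lay under the 25th percentile on both wild-type solid arrays, 4 on both liquid control arrays, 6 on both fh1-1 arrays and 6 on both SMIFH2 arrays. The seed marker sums of wild type on solid medium and of the liquid control overlapped. The 2 measured root hair markers summed to 18.9 to 22.4 in wild type on solid medium, 35.4 to 52.5 in fh1-1, 14.5 to 17.6 in the liquid control and 30.1 to 38.9 with SMIFH2. Photosynthesis markers were thus lowest and root markers highest by sum in the group in which the members were high, whereas root hair markers were not highest there, and the part of these markers in the members' levels was not tested. In pooled whole seedlings, fewer cells of a type and less RNA per cell cannot be told apart.

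The members stood apart from the other groups by a margin, taken as the wild-type solid mean minus the highest of the other 3 group means. The margin ran from 0.80 to 2.18 on the log2 scale, with a median of 1.01 and quartiles of 0.90 and 1.22, and 52 of the 100 loci had a margin of at least 1, which is a doubling. The median level of the members was 5.05 in wild type on solid medium, 3.68 in fh1-1, 3.85 in the liquid control and 3.75 with SMIFH2. Both wild-type solid arrays lay above all 6 other arrays for 99 of the 100 loci, a state shared by 12.7% of all genes tested. By limma, 97 members were lower in fh1-1 than in wild type on solid medium (background 11.7% of genes lower), 86 were lower in the liquid control (2.48%) and 97 were lower with SMIFH2 (11.6%), all at an adjusted p under 0.05. These 3 comparisons share the wild-type solid arrays and were used by the rule, so nothing is read from the counts.

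**Figure D1:**
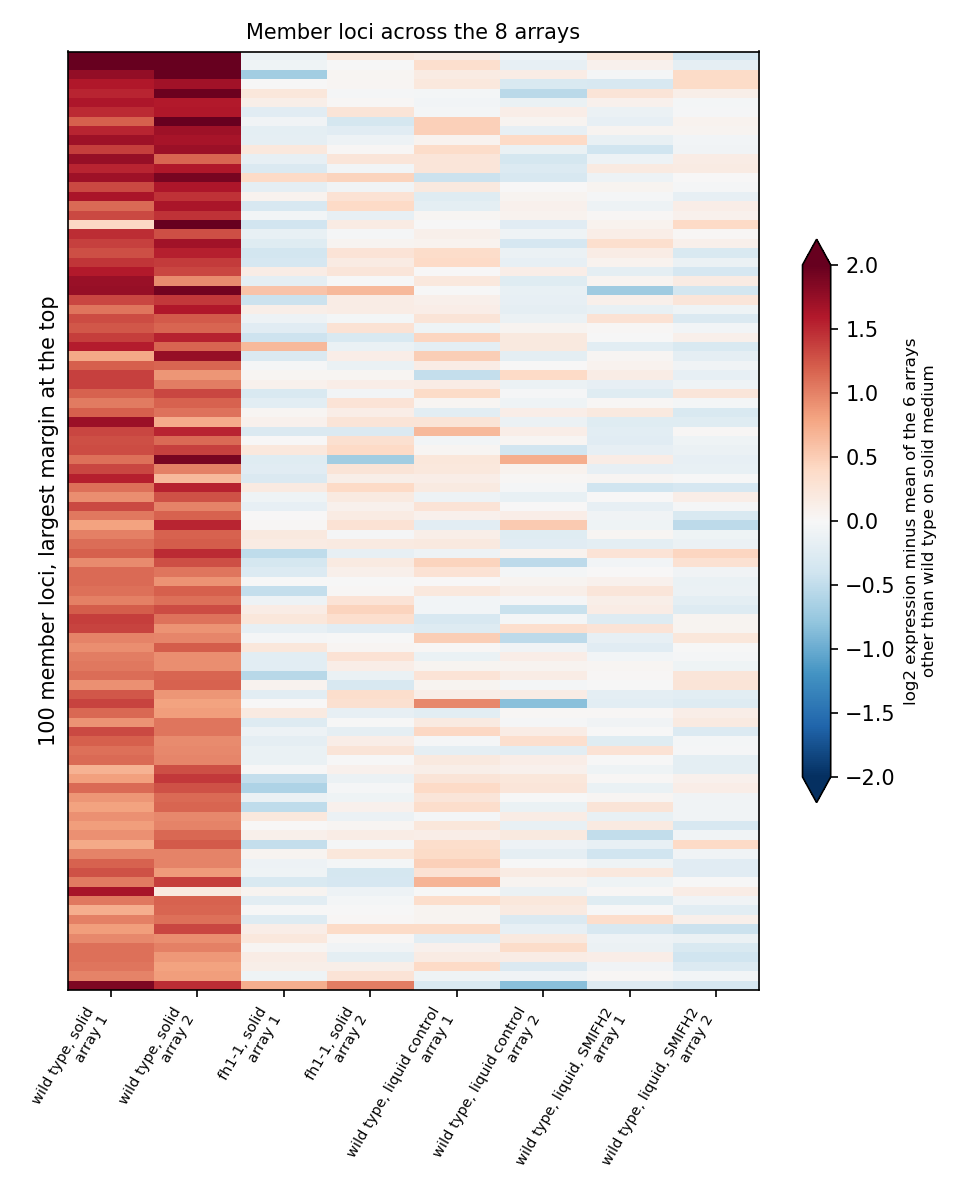
Each row is 1 of the 100 loci, ordered by margin, and each column is 1 of the 8 arrays. Colour gives log2 expression minus the mean of the 6 arrays outside wild type on solid medium. The left 2 columns are therefore high by choice of the loci. The variation among the other 6 columns was also restricted, because the rule limited the difference between the SMIFH2 and liquid control means. Likeness of these liquid groups is thus partly a result of the choice.

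The largest margin belonged to AT2G34290. Its log2 levels were 3.83 and 3.55 on the 2 wild-type solid arrays, 1.34 and 1.69 on the fh1-1 arrays, 1.64 and 1.38 on the liquid control arrays and 1.69 and 1.15 on the SMIFH2 arrays. The locus was therefore near the bottom of the scale, under the 25th percentile of each array, in all 6 arrays outside wild type on solid medium, and its margin of 2.18 is a difference from a level not shown to be above background. AT2G25150 followed with 4.56 and 4.45 on the 2 wild-type solid arrays, 2.22 and 2.29 on the fh1-1 arrays, 2.64 and 2.14 on the liquid control arrays and 2.38 and 2.12 on the SMIFH2 arrays, a margin of 2.12. Its other 6 arrays, at 2.12 to 2.64, were also near the 25th percentile, which was 2.13 to 2.22 on those arrays. AT3G05920 had 5.73 and 6.07 on the 2 wild-type solid arrays, 3.26 and 4.01 on the fh1-1 arrays, 4.13 and 4.11 on the liquid control arrays and 3.93 and 4.34 on the SMIFH2 arrays, a margin of 1.76, and here 1 fh1-1 array was the lowest of the 8. In each of these 3 loci the wild-type solid arrays were separate from the rest, with the nearest other array at least 1.38 below the lower of them.

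AT5G47950 measured 5.76 and 5.84 in wild type on solid medium against 3.83 to 4.53 on the other 6 arrays, and the 3 low groups could hardly be ordered, with means of 4.17, 4.11 and 4.18. AT2G29620 measured 5.10 and 5.54 in wild type on solid medium against 3.04 to 3.83 on the other 6 arrays. Its SMIFH2 mean was 0.47 above its liquid control mean, the largest positive difference between those groups among the members and close to the limit of 0.5. AT5G18970 was among the tightest members, with 6.76 and 6.74 on the 2 wild-type solid arrays, 5.27 and 5.17 on the fh1-1 arrays, 5.09 and 5.01 on the liquid control arrays and 5.23 and 5.11 on the SMIFH2 arrays. The other 6 arrays of AT5G18970 ran from 5.01 to 5.27, and its margin was 1.53.

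AT5G10970 measured 7.08 and 7.19 in wild type on solid medium against 5.37 to 5.85 on the other 6 arrays. AT1G55240 measured 4.53 and 4.71 in wild type on solid medium against 2.79 to 3.49 on the other 6 arrays. AT1G29520, a bright probe set, measured 8.27 and 8.24 in wild type on solid medium against 6.40 to 6.98 on the other 6 arrays, with both liquid control arrays above the fh1-1 and SMIFH2 arrays. AT5G02170 measured 5.28 and 5.61 in wild type on solid medium against 3.49 to 4.26 on the other 6 arrays, and AT3G48400 5.20 and 5.28 in wild type on solid medium against 3.40 to 3.93 on the other 6 arrays. These 5 loci had margins between 1.39 and 1.50, and in none of them did an array of another group reach the wild-type solid arrays.

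At the dim end, AT4G02360 measured 3.64 and 3.07 in wild type on solid medium against 1.54 to 2.15 on the other 6 arrays, and AT3G04900 3.52 and 3.82 in wild type on solid medium against 2.02 to 2.40 on the other 6 arrays. Of 100 members, 10 lay under the 25th percentile on both fh1-1 arrays, 5 on both liquid control arrays and 9 on both SMIFH2 arrays. In wild type on solid medium 0 did so, which the choice of loci high there favours. Of the 14750 unnamed loci, 3828, 3924, 3845 and 3833 did so in these 4 groups, in the same order. For 5 members all 3 low groups were under the 25th percentile. For such loci the log2 margin depends on the array background and may understate the ratio of transcripts.

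**Figure D2:**
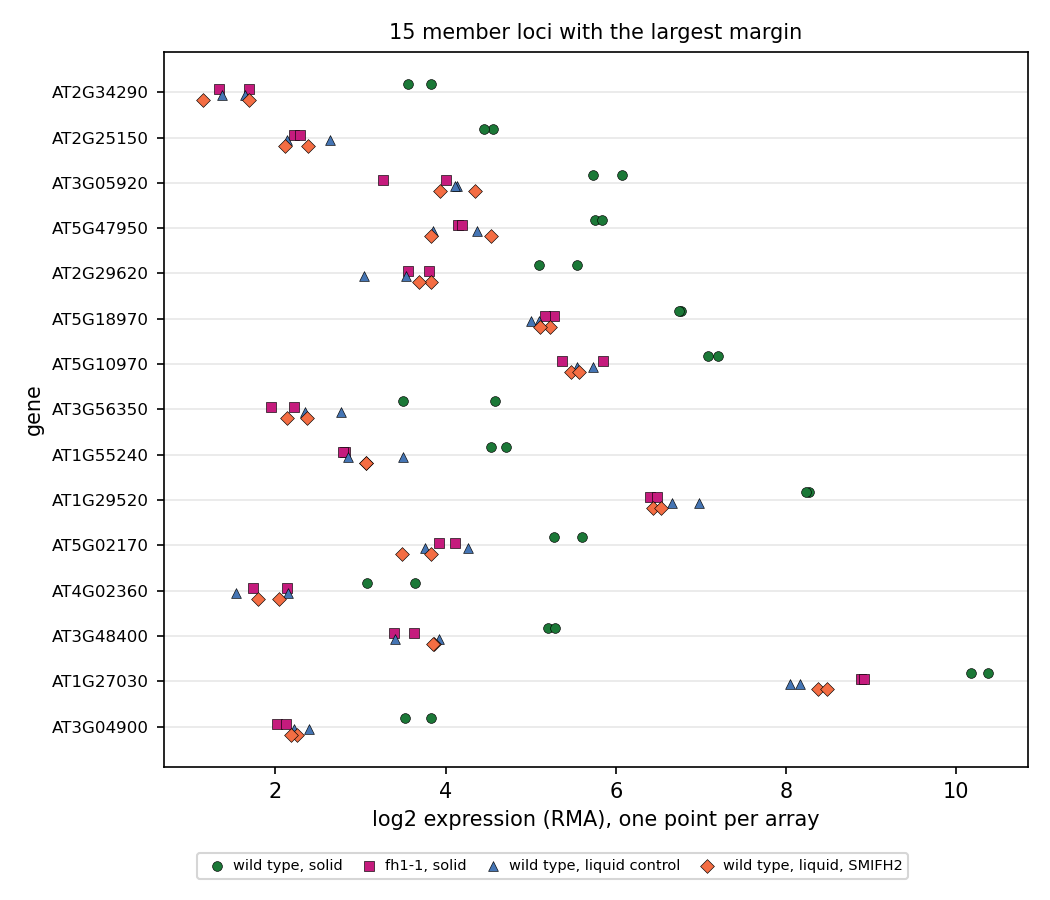
Log2 expression on every array is shown for the 15 loci with the largest margin, 2 points for each group. In all 15 the wild-type solid points lie to the right of the other 6, and in AT1G27030 the fh1-1 points (8.88 and 8.91) also stand above both liquid groups.

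The 5 members with the highest wild-type solid values were AT1G27030, AT3G30390, AT3G26720, AT3G21770 and AT4G20320. Brightness differs between probe sets for reasons of their own, so these levels are not ranked against each other. AT3G30390 measured 9.24 and 9.36 in wild type on solid medium against 7.93 to 8.53 on the other 6 arrays. AT3G26720 measured 9.24 and 9.22 in wild type on solid medium against 8.08 to 8.50 on the other 6 arrays. Their margins, 0.83 each, were near the lower limit. AT3G21770 measured 9.27 and 8.93 in wild type on solid medium against 7.73 to 8.05 on the other 6 arrays, a margin of 1.08. AT4G20320 measured 8.18 and 8.35 in wild type on solid medium against 6.93 to 7.37 on the other 6 arrays, a margin of 1.01. These 4 loci kept a clear signal in every group, with all 8 arrays far above the 25th percentile.

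The transporter gene AT1G72120 (NPF5.14) measured 7.23 and 7.37 on the 2 wild-type solid arrays, 5.86 and 5.75 on the fh1-1 arrays, 5.97 and 5.99 on the liquid control arrays and 5.94 and 6.01 on the SMIFH2 arrays. Its other 6 arrays lay within 5.75 to 6.01, and its margin was 1.32.

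At the threshold, the members with the smallest margins were AT1G47271 (0.80), AT3G20380 (0.82) and AT5G11620 (0.82). The loci just outside it were AT2G16530 (0.80), AT1G13050 (0.79) and AT5G01480 (0.79). AT3G20380 measured 6.22 and 6.07 in wild type on solid medium against 5.15 to 5.51 on the other 6 arrays, and AT2G16530, outside the set, measured 6.44 and 6.36 in wild type on solid medium against 5.21 to 5.62 on the other 6 arrays. Their low groups ran in opposite order by mean, with fh1-1 highest (5.33) and the liquid control lowest (5.15) in AT3G20380, and the liquid control highest (5.60) and fh1-1 lowest (5.27) in AT2G16530.

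Altogether 148 unnamed loci had the margin, and 48 of these missed the limit on the difference between SMIFH2 and liquid control. In 42 of the 48, SMIFH2 was the lower of both, and in 6 it was the higher. The nearest of them were AT3G02480, at -0.51, and AT1G66800, at 0.51. Inside the limit, the differences ran from -0.48 (AT5G07080) to 0.47 (AT2G29620), with a median of -0.10 (-0.02 over all genes tested). Of the 100 members 67 had a lower mean with SMIFH2 than in the liquid control, beside 8720 of 16554 genes tested. By limma 0 members differed between these groups (7 at an unadjusted p under 0.05), beside 14.9% of all genes tested. The limit on this difference was part of the rule, so nothing is read from that count. By comparison, 66 unnamed loci stood at least 0.8 above the other 3 groups in the liquid control, 11 in fh1-1 and 14 with SMIFH2. With the thresholds mirrored, 45 unnamed loci were low only in wild type on solid medium.

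The count of members rests on single arrays. Leaving out array 1 of the wild-type solid group gave 172 loci, of which 84 are among the 100, and leaving out array 2 gave 137, of which 83 are. The arrays of that group differed by a median of 0.23 across the members (0.18 over all unnamed loci). They differed by over 0.5 in 14 members and by over 1 in 3, beside 1538 and 119 of the 14750 unnamed loci. AT1G14930 had the widest gap of all unnamed loci, with 2.84 and 5.12 against 2.05 to 2.82 on the other arrays. AT2G20619 measured 3.01 and 1.55 against 1.25 to 1.51, and AT3G56350 3.50 and 4.58 against 1.95 to 2.77. In AT1G14930 and AT2G20619 only 1 of the wild-type solid arrays was clearly high, and the opposite one in each. In AT5G19100, the locus with overlap, array 1 of the liquid control stood at 6.53, between the wild-type solid arrays (6.93 and 6.37), while array 2 stood at 4.73. Array 1 was the higher one in 45 members and array 2 in the rest.

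**Figure D3:**
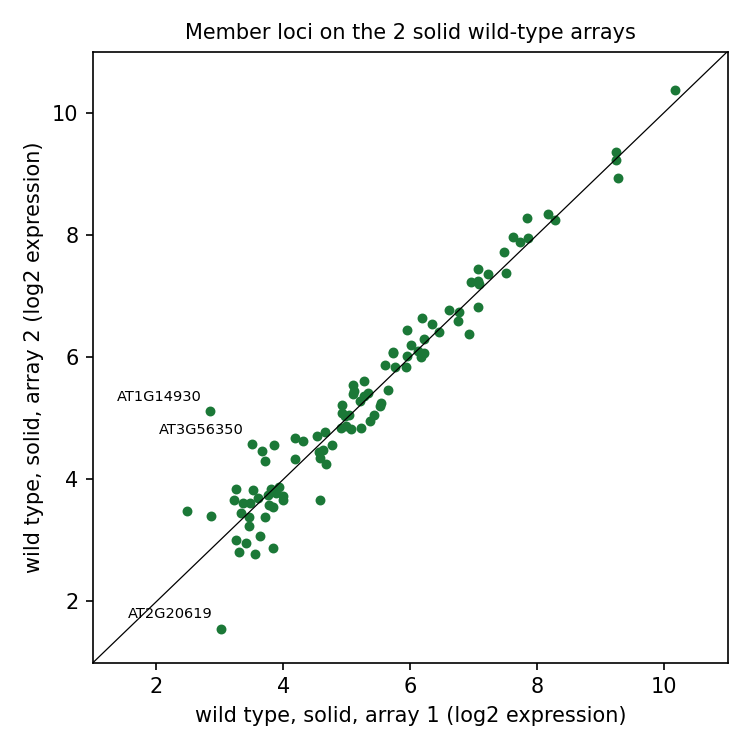
Log2 expression of the 100 loci on array 1 (horizontal) and array 2 (vertical) of wild type on solid medium, with the line of equal values. Most loci lie near the line, and the 3 labelled loci differ by more than 1 between the arrays.

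How far the 3 low groups differed among themselves was not fixed directly for fh1-1. The spread of the 3 low group means had a median of 0.29 and was under 0.5 in 85 members. The rule capped the SMIFH2 and liquid control part of this spread. The count is given without a share over all genes, so nothing is read from it. The lowest mean was that of SMIFH2 in 41 loci, fh1-1 in 36 and the liquid control in 23. Between fh1-1 on solid medium and the liquid control, genotype, medium, shaking and light differed together and cannot be told apart. Between fh1-1 and SMIFH2 the drug differed as well. Against the liquid control, fh1-1 had a median difference of -0.04 over the members (quartiles of -0.22 and 0.10), and 0.00 over all genes tested. By limma, 6 members differed at an adjusted p under 0.05, 3 higher and 3 lower in fh1-1, beside 17.5% of all genes tested. This share is not independent of the rule, because the limit held SMIFH2 near the liquid control and only 0.145% of all genes differed between SMIFH2 and fh1-1. With a median standard error of 0.19, the 95% interval of a difference reached about 0.43 on either side. For 87 of the 100 members the interval lay within 1 of zero, beside 13120 of 16554 genes tested. With 2 arrays per group, differences of about 0.43 or less between fh1-1 and the liquid control could have gone undetected.

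AT1G47271 differed most. It measured 5.22 and 4.84 on the 2 wild-type solid arrays, 4.08 and 4.37 on the fh1-1 arrays, 3.05 and 2.52 on the liquid control arrays and 3.1 and 3.01 on the SMIFH2 arrays. The levels fell in 3 steps, with fh1-1 below wild type on solid medium and both liquid groups lower still, and no arrays of these steps overlapped. The difference of fh1-1 from the liquid control was 1.44 ± 0.21 (log2, SE, n = 2 arrays per group, limma adjusted p = 0.0014). AT1G27030 had the same order, with 10.17 and 10.37 on the 2 wild-type solid arrays, 8.88 and 8.91 on the fh1-1 arrays, 8.04 and 8.16 on the liquid control arrays and 8.38 and 8.48 on the SMIFH2 arrays, and fh1-1 exceeded the liquid control by 0.80 ± 0.15 (limma adjusted p = 0.0055). Both differences passed under all 16 alternatives, at adjusted p values up to 0.019 and 0.046.

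AT5G15360 was the third locus higher in fh1-1. It measured 7.06 and 7.25 on the 2 wild-type solid arrays, 5.90 and 5.97 on the fh1-1 arrays, 5.30 and 5.18 on the liquid control arrays and 4.61 and 4.95 on the SMIFH2 arrays. The fh1-1 arrays lay between wild type on solid medium and the liquid groups, and the difference from the liquid control was 0.69 ± 0.17 (limma adjusted p = 0.018, 0.0081 to 0.11 over 16 alternatives). It missed the threshold without either fh1-1 array (0.08 and 0.11) or without array 2 of the liquid control (0.072). AT5G15360 was also the single member that differed between SMIFH2 and fh1-1, by -1.15 ± 0.17 (limma adjusted p = 0.035), beside 0.145% of all genes tested. That call was lost in 11 of 16 alternatives, with an adjusted p of 0.0098 to 0.32, and each of the 8 arrays, when left out, ended it (0.055 to 0.32). Both comparisons share the fh1-1 arrays.

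In the other direction, AT4G33120 measured 3.66 and 4.45 on the 2 wild-type solid arrays, 2.30 and 1.86 on the fh1-1 arrays, 2.78 and 3.28 on the liquid control arrays and 2.70 and 2.39 on the SMIFH2 arrays. Its fh1-1 arrays were the lowest, and its wild-type solid arrays differed by 0.79. The difference of fh1-1 from the liquid control was -0.95 ± 0.28 (limma adjusted p = 0.043). AT1G14730 measured 6.61 and 6.76 on the 2 wild-type solid arrays, 4.81 and 4.93 on the fh1-1 arrays, 5.66 and 5.43 on the liquid control arrays and 5.22 and 5.34 on the SMIFH2 arrays, a difference of -0.67 ± 0.16 (limma adjusted p = 0.016). AT1G72200 measured 6.35 and 6.53 on the 2 wild-type solid arrays, 4.71 and 4.72 on the fh1-1 arrays, 5.65 and 5.13 on the liquid control arrays and 4.79 and 5.03 on the SMIFH2 arrays, a difference of -0.67 ± 0.19 (limma adjusted p = 0.038). In AT4G33120, AT1G14730 and AT1G72200 the liquid control lay nearest to wild type on solid medium.

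The calls of AT4G33120 and AT1G72200 were the least secure of the 6. AT4G33120 missed the threshold in 8 of 16 alternatives (adjusted p 0.022 to 0.25), among them omission of array 1 (0.071) or 2 (0.25) of fh1-1, array 2 of the liquid control (0.2) or either SMIFH2 array (0.06 each). AT1G72200 missed it in 8 (0.012 to 0.21), among them omission of array 1 (0.16) or 2 (0.15) of fh1-1 or array 1 of the liquid control (0.21), where its difference was -0.42, and it reached 0.05 without either SMIFH2 array. AT1G14730 missed it in 3 (0.0086 to 0.11), without array 1 (0.11) or 2 (0.063) of fh1-1 or array 1 of the liquid control (0.086). The count of 6 members became 2 without array 1 of fh1-1.

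**Figure D4:**
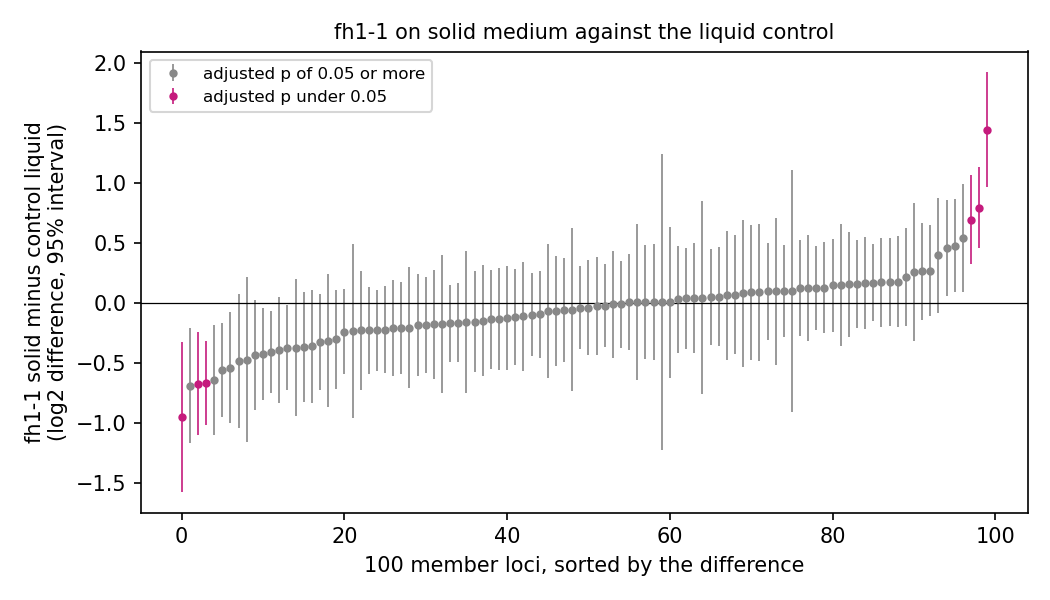
The log2 difference of fh1-1 on solid medium from the liquid control is plotted for the 100 loci in order of size, with its 95% interval from limma. The differences run from -0.95 to 1.44, and the 6 coloured loci passed at an adjusted p under 0.05.

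Genes with a symbol give some idea of what else had this profile. Of the tested genes outside the unnamed nuclear loci, 13 met the same thresholds, and both wild-type solid arrays were above the other 6 in all 13. Together with the members these were 0.683% of all genes tested. They too were chosen by their values, over the 4 group means, and their likeness says nothing of shared function. SWEET3 (AT5G53190), of the SWEET family of sugar transporters, had the largest margin among them. It measured 3.72 and 3.61 on the 2 wild-type solid arrays, 1.73 and 1.93 on the fh1-1 arrays, 2.25 and 2.20 on the liquid control arrays and 2.04 and 2.04 on the SMIFH2 arrays, a margin of 1.44. GSTF4 (AT1G02950), a glutathione S-transferase, measured 5.01 and 4.73 in wild type on solid medium against 3.50 to 4.0 on the other 6 arrays.

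Several are known from development. OPS (OCTOPUS, AT3G09070), a membrane protein that promotes phloem differentiation, measured 4.14 and 4.44 in wild type on solid medium against 2.75 to 3.26 on the other 6 arrays. LBD29 (AT3G58190), a transcription factor of auxin-dependent lateral root formation, measured 5.70 and 5.49 on the 2 wild-type solid arrays, 4.54 and 4.65 on the fh1-1 arrays, 4.05 and 4.16 on the liquid control arrays and 4.24 and 4.22 on the SMIFH2 arrays, with fh1-1 between wild type on solid medium and the liquid groups as in AT1G47271. ATC (AT2G27550), a relative of the flowering repressor TFL1, measured 6.17 and 5.90 in wild type on solid medium against 4.20 to 5.30 on the other 6 arrays. AFR (AT2G24540), which acts in far-red light signalling, measured 4.62 and 5.15 in wild type on solid medium against 3.72 to 4.15 on the other 6 arrays, and its wild-type solid arrays differed by 0.53.

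Others act on small molecules or the cell wall. UGT76B1 (AT3G11340), a glycosyltransferase that conjugates defence-related metabolites, measured 7.74 and 7.64 in wild type on solid medium against 6.34 to 6.96 on the other 6 arrays, and UGT73C7 (AT3G53160), of the same enzyme superfamily, 3.43 and 4.07 in wild type on solid medium against 2.60 to 2.82 on the other 6 arrays. GUT2 (IRX10, AT1G27440), a glycosyltransferase of xylan synthesis, measured 7.18 and 7.09 in wild type on solid medium against 6.06 to 6.30 on the other 6 arrays. TBL38 (AT1G29050), of a family that acetylates wall polysaccharides, measured 6.26 and 6.41 in wild type on solid medium against 5.30 to 5.60 on the other 6 arrays. PRA8 (AT3G13720), a prenylated Rab acceptor of the membrane traffic system, measured 6.09 and 6.20 in wild type on solid medium against 4.17 to 5.50 on the other 6 arrays, and SETH6 (AT2G47860) 5.20 and 5.08 in wild type on solid medium against 3.81 to 4.11 on the other 6 arrays. Margins of these 12 genes ran from 0.81 to 1.44, inside the range of the members.

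**Figure D5:**
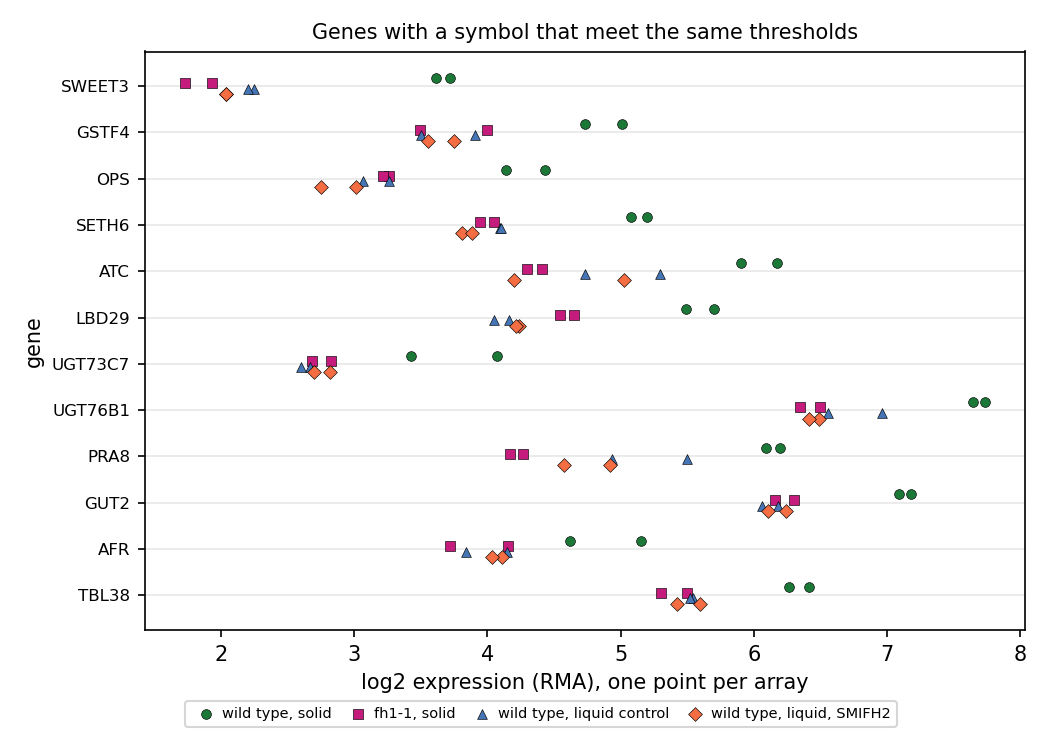
Log2 expression on every array for 12 genes with a symbol that met the same thresholds, 2 points for each group. The wild-type solid points lie to the right of all others in each gene, and margins run from 1.44 (SWEET3) to 0.81 (TBL38).

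The members lay on all 5 nuclear chromosomes, 32 on chromosome 1, 16 on chromosome 2, 16 on chromosome 3, 11 on chromosome 4 and 25 on chromosome 5. The unnamed loci tested were spread in similar shares, at 26.2%, 15.3%, 20.5%, 14.7% and 23.3%. Margins of at least 1 on chromosome 1 belonged to AT1G55240, AT1G29520, AT1G27030, AT1G63380, AT1G72120, AT1G14930, AT1G62190, AT1G24130, AT1G14730, AT1G60360, AT1G34520, AT1G68360, AT1G03220, AT1G72200, AT1G29380, AT1G68230, AT1G27620 and AT1G06090. On chromosome 2 they belonged to AT2G34290, AT2G25150, AT2G29620, AT2G29930, AT2G07000, AT2G39855 and AT2G01275. The loci at or above 1 on chromosome 3 were AT3G05920, AT3G56350, AT3G48400, AT3G04900, AT3G25290, AT3G45700 and AT3G21770. For chromosome 4 they were AT4G02360, AT4G11290, AT4G10160, AT4G05430, AT4G33120 and AT4G20320. Chromosome 5 had AT5G47950, AT5G18970, AT5G10970, AT5G02170, AT5G51780, AT5G46530, AT5G15360, AT5G54240, AT5G35580, AT5G19970, AT5G38820, AT5G42500, AT5G42655 and AT5G67550.

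The other 48 members had margins from 0.80 to 1.00. On chromosome 1 they were AT1G28100, AT1G66440, AT1G45015, AT1G61760, AT1G62370, AT1G67330, AT1G74770, AT1G55430, AT1G12600, AT1G47670, AT1G25141, AT1G48390, AT1G11915 and AT1G47271. Those of chromosome 2 were AT2G30650, AT2G24800, AT2G02630, AT2G41780, AT2G39430, AT2G21850, AT2G34350, AT2G20619 and AT2G11270. Chromosome 3 held AT3G15800, AT3G49744, AT3G25930, AT3G14260, AT3G51330, AT3G10080, AT3G30390, AT3G26720 and AT3G20380. Chromosome 4 held AT4G30670, AT4G30640, AT4G37445, AT4G02090 and AT4G22460. Chromosome 5 had AT5G08240, AT5G57400, AT5G49900, AT5G02140, AT5G19100, AT5G59930, AT5G23950, AT5G57070, AT5G07080, AT5G64880 and AT5G11620.

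The members shared little in position or gene structure. They spanned a median of 1670.5 bp against 1873 bp over the unnamed loci tested, and 64 of 100 had a single RefSeq transcript, against 63.6% of the unnamed loci. No member was the immediate neighbour of another in the RefSeq gene order. The closest pairs were AT5G02140 and AT5G02170, with 2 genes between them, and AT4G30640 and AT4G30670, with 3. AT5G02140 measured 4.62 and 4.49 in wild type on solid medium against 3.36 to 3.70 on the other 6 arrays. AT4G30640 measured 3.34 and 3.44 in wild type on solid medium against 2.13 to 2.61 on the other 6 arrays, and AT4G30670 7.63 and 7.96 in wild type on solid medium against 6.16 to 7.13 on the other 6 arrays.

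Genes next to the members were not used by the rule. Of the 200 immediate neighbours, 123 were measured, and 11 of the 123 overlap the span of the member beside them. By limma, 12 of them (9.76%) were lower and 18 (14.6%) higher in fh1-1 than in wild type on solid medium, beside 11.7% and 10.9% of all genes tested. Lower in the liquid control were 3 (2.44%, beside 2.48%), and lower with SMIFH2 than in wild type on solid medium were 13 (10.6%, beside 11.6%). The shares of lower neighbours were near those of all genes. The median margin of the neighbours was -0.13, and -0.12 over all genes. Without array 2 of fh1-1 the 12 lower neighbours became 6, and without any other single array of fh1-1 or of wild type on solid medium they became 7.

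Of these 123 neighbours 1 had a margin of at least 0.8, beside 175 of all 16554 genes tested. This neighbour was AT1G61750, next to the member AT1G61760. It measured 5.91 and 6.65 on the 2 wild-type solid arrays, 2.77 and 2.67 on the fh1-1 arrays, 5.50 and 5.36 on the liquid control arrays and 2.89 and 2.90 on the SMIFH2 arrays, so fh1-1 and SMIFH2 were far below both untreated wild-type groups. AT1G61760 measured 5.27 and 5.37 on the 2 wild-type solid arrays, 4.20 and 4.50 on the fh1-1 arrays, 4.01 and 3.61 on the liquid control arrays and 4.21 and 3.80 on the SMIFH2 arrays, with both liquid groups lowest by mean, so the adjacent genes differed in profile. AT5G59940, next to the member AT5G59930, measured 4.19 and 4.78 in wild type on solid medium against 2.92 to 4.12 on the other 6 arrays. AT1G03210, beside AT1G03220, measured 5.96 and 5.91 in wild type on solid medium against 4.86 to 5.34 on the other 6 arrays. These 3 neighbours were picked by their margins.

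A further measure came from AT1G67330, the only member with more than 1 single-gene probe set. The probe set used measured 6.02 and 6.20 on the 2 wild-type solid arrays, 4.86 and 5.12 on the fh1-1 arrays, 5.31 and 5.09 on the liquid control arrays and 5.05 and 5.30 on the SMIFH2 arrays, a margin of 0.91. The dimmer probe set, which the rule did not use, measured 3.61 and 3.82, 2.22 and 2.42, 3.51 and 3.27 and 2.47 and 2.34 in the same order. There the liquid control was close to wild type on solid medium, with a margin of 0.32, while fh1-1 and SMIFH2 were low, so the probe sets of this locus disagreed.

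No member belonged to any of 11 marker and pathway lists, which had 1 to 14 measured genes each. All thresholds of the rule were met by only 0.683% of all genes tested, so nothing is read from this. In the hypoxia list 14 of 27 genes were measured, of which 5 were lower and 2 higher in fh1-1 than in wild type on solid medium by limma (background 11.7% and 10.9%), and 0 in either direction in the liquid control (background 2.22% higher and 2.48% lower). AT1G19530 measured 7.56 and 7.64 on the 2 wild-type solid arrays, 3.38 and 3.05 on the fh1-1 arrays, 7.46 and 7.47 on the liquid control arrays and 3.79 and 3.28 on the SMIFH2 arrays, so it was low in fh1-1 and SMIFH2 and similar in both untreated wild-type groups. The carbon starvation list had 2 of 3 measured genes lower in fh1-1 and 3 with SMIFH2 (background 11.6%), and 0 in the liquid control. Of 13 seed and embryo markers 6 were lower in fh1-1 (background 11.7%), 7 with SMIFH2 (11.6%) and 0 in the liquid control (2.48%). OLEO3 (AT5G51210), an oil-body oleosin of seeds, measured 3.24 and 3.82 on the 2 wild-type solid arrays, 1.70 and 1.96 on the fh1-1 arrays, 3.12 and 2.54 on the liquid control arrays and 1.86 and 1.57 on the SMIFH2 arrays.

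The abscisic acid and dehydration list had 3 measured genes of 16, of which 1 was higher and 1 lower in fh1-1 (background 10.9% and 11.7%). In the liquid control 1 was lower (background 2.48%), and with SMIFH2 2 were lower (11.6%). AT3G02480 measured 5.02 and 5.28 on the 2 wild-type solid arrays, 3.38 and 3.69 on the fh1-1 arrays, 4.23 and 3.53 on the liquid control arrays and 3.29 and 3.45 on the SMIFH2 arrays, a profile that met the margin and narrowly missed the other limit. COR47, a dehydrin, was not high in wild type on solid medium, with 7.61 and 6.92 there and 7.64 to 7.96 elsewhere. Of 7 heat shock genes measured 1 was higher and 0 lower in fh1-1 (background 10.9% and 11.7%), so nothing is read from these counts. The phosphate starvation and jasmonate lists had 1 measured gene each, of which VTC4, an enzyme of inositol and ascorbate synthesis, was higher in fh1-1 (5.27 and 5.24 in wild type on solid medium, 6.60 and 6.64 in fh1-1) and MYC4 did not pass. Of 2 root hair genes both were higher and 0 lower in fh1-1 (background 10.9% and 11.7%), and of 4 pollen genes 0 passed.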

How the data were processed

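Per the labels' protocols, NASC labelled the total RNA of whole seedlings and ran the arrays. The deposited table holds log2 expression (RMA), produced by the authors with Affymetrix Expression Console 1.4 and Transcriptome Analysis Console 3.1, per the submitters' processing notes. RMA corrects background, normalizes arrays together and summarises each probe set. The array's genome build is not given in the sources used here.

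The table held 38408 probe sets on 8 arrays, of which 16746 were annotated with 1 gene. The brightest probe set was taken for the 163 genes with several, which gave 16554 genes. All 100 members matched RefSeq (TAIR10.1) by Entrez ID, used for names and gene order. Groups were compared in limma 3.58.1 (R 4.3.3) on all 8 arrays, with 4 residual and 5.81 prior degrees of freedom and Benjamini-Hochberg adjustment over all genes at 0.05. The steps were tested on simulated data. Members and gene lists were chosen with earlier results of these data known. Named were the 15 largest margins, 3 loci on either side of the margin, 5 brightest members, members past the threshold between the low groups, closest neighbours and up to 12 genes with a symbol. Other loci were chosen after their values were seen. Product classes and promoter motifs were planned but not analysed here. Alternatives were other normalizations, priors, filters, probe-set rules, thresholds and omission of each array. Figures used matplotlib 3.10.9.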

Additional observations from a re-analysis of the deposited data

How the results depend on the processing

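The 2 arrays per group limit precision, and omission of an array leaves 1 that is assumed to vary like the other groups. The number of members was 52 with a margin of 1, 241 with a margin of 0.6 and 72 with an SMIFH2 limit of 0.3. It was 88 to 172 without single arrays, and 89 to 99 under the other alternatives. Members that differed between fh1-1 and the liquid control by limma numbered 2 to 6 without single arrays and 4 to 9 otherwise. All genes called there, 2902 in the reported fit, were 1424 and 1466 without array 1 or 2 of fh1-1 and 4440 over every probe set. Between SMIFH2 and fh1-1, the 1 member called by limma became 0 in the fit of 4 arrays, with the repeat number as a block and over every probe set (18, 12 and 10 members at an unadjusted p under 0.05, against 11 in the reported fit), and was 0 without any single array (7 to 14). All genes called there, 24 in the reported fit, ranged from 0 to 38. Neighbouring genes called lower in fh1-1, a count tested under alternatives chosen after seeing the data, were 6 to 13 without single arrays and 8 to 13 otherwise. The repeat number as a block gave 4 members for fh1-1 against the liquid control and 12 neighbours. AT4G33120 and AT1G72200 had an adjusted p of 0.055 each with this block. Arrays with the same repeat number did not deviate together (correlations of -0.06 to 0.01 between groups), so the numbers were not taken as pairs. No direction reversed.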
